A study of Mus musculus with 6 samples.

Results

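The G1 cyclins, the kinases they activate, the phosphatase Cdc25a and the transcription factor E2f1 were followed in 32D cells with and without the Nup98::Nsd1 fusion. The 10 genes (Ccnd1, Ccnd2, Ccnd3, Ccne1, Ccne2, Cdk2, Cdk4, Cdk6, Cdc25a and E2f1) were taken by symbol, as every probe set that the platform annotation gives to 1 of them alone. This gave 30 probe sets, for 10 of the 18193 genes that the array measures with a probe set of a single symbol.

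32D is a mouse myeloid progenitor line, derived per the labels from Friend virus-infected bone marrow of strain C3H/HeJ, and it needs interleukin-3 (IL-3) to grow. The 3 mock samples carry MSCVpuro, a retroviral vector, in their titles and are described as mock-transduced, and the 3 Nup98::Nsd1 samples were transduced with the fusion, which joins a nuclear pore protein to a histone methyltransferase and is found in acute myeloid leukaemia. Each sample was 1 Affymetrix mouse genome array, on which a probe set is a group of short probes for 1 transcript, read out as a signal on a linear scale with a call (Present, Marginal or Absent) on whether the transcript was detected. No label says whether the samples were separate cultures, clones or pools, so p-values cover the spread between these arrays alone, which could be technical, and the number of arrays limits the precision.

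Passage from G1 into S phase is driven by cyclin-dependent kinases (CDKs). Growth factors such as IL-3 raise the D cyclins, which activate CDK4 and CDK6; these kinases phosphorylate the retinoblastoma protein and so release E2F transcription factors. E2F then turns on the E cyclins, which activate CDK2, along with the CDK-activating phosphatase Cdc25a and the genes of DNA synthesis. Myeloid progenitors use cyclin D2, cyclin D3 and CDK6 in particular.

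E2F turns on some of these genes, the E cyclins and Cdc25a among them. The RefSeq promoter windows of the members (GRCm38.p6, 250 bases before to 50 after a transcript start) were therefore searched on both strands. The search used 4 spellings of the E2F consensus, TTTCCCGC, TTTCGCGC, TTTGCCGC and TTTGGCGC. The table held 8 windows for 7 of the members (Ccnd3 had 2), and 2 of the 8 held a match, Cdc25a and Cdk2, against 2.26% of all 32851 windows. A match is a description of letters, not a shown binding site. Both windows with a match are printed in part, 5′ to 3′ on the strand of the gene, with the match in capitals. In Cdk2 it reads on the opposite strand as TTTCCCGC. At the brightest probe set both genes were lower in Nup98::Nsd1 cells, as were E2f1, Cdk4, Cdk6 and Ccnd3, whose windows held no match. The first base of the match lies 67 bases before the annotated start in Cdc25a and 140 in Cdk2. The Cdc25a start used lies 61 bases inside the outermost edge of the gene in RefSeq, so its match falls at that edge.
Cdc25a, chr9:109875412-109875537, plus strand: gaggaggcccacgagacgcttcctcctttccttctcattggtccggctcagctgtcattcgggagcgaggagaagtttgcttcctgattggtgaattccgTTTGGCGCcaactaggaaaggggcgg
Cdk2, chr10:128705166-128705291, minus strand: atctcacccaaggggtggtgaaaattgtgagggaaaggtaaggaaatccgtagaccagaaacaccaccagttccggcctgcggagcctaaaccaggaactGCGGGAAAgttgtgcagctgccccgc
The windows of E2f1, Ccne1, Cdk4, Cdk6 and Ccnd3 held no match, but the starts used for E2f1, Cdk6 and 1 of the Ccnd3 windows lie 466, 2889 and 88416 bases inside the outermost edge of the gene in RefSeq, so those windows do not cover the sequence before it. Windows for Ccnd1, Ccnd2 and Ccne2 were not analysed here.

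The comparison asks how the fusion-transduced cells differ from mock in these genes. Most were lower in Nup98::Nsd1 cells. At the brightest tested probe set of each gene, cyclin E2 and Cdc25a fell more than 2-fold, and Cdk2, Cdk6 and E2f1 fell by less. The D cyclins Ccnd2 and Ccnd3 and their partner Cdk4 fell slightly, Ccne1 did not pass the test, and Ccnd1, near the lower end of detection, rose. That rise and the slight falls did not pass after quantile normalization. Cdk6 rose at 1 of its 3 tested probe sets, and E2f1 fell at 1 of 2. The test took in probe sets that were Present on each of the 3 arrays of a group, or of both. Of the 30 probe sets 23 were tested, each of them Present on all 6 arrays, and 7 were not. With limma and an adjusted p of 0.05, 15 of the 23 fell, 2 rose and 6 did not pass. The groups of arrays did not overlap at 17 of the 23, against 73.2% of all tested probe sets, a share like that of the members.

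The background of this comparison was high: 69.9% of all 20494 tested probe sets passed, 42.3% upward and 27.6% downward. Each gene was represented by its brightest tested probe set. By that rule 8 of the 10 genes fell and 1 rose, against 29.5% and 42.9% of all 9641 tested genes, and 2 fell at least 2-fold, against 2.6% of genes. The share of the 10 genes that passed, either way, is not far above the 72.3% of all genes. Their median log2 fold change was -0.33, while that of all tested genes was 0.12. The arrays of both groups did not overlap for 8 of the 10 genes, against 75.1% of all genes. Values are given as deposited, where the median log2 fold change over all tested probe sets was 0.15; other scalings move that middle to -0.01 (quantile normalization), -0.02 (median centring), -0.04 (75th percentile centring) and -0.21 (scaling to the hybridization controls).

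**Figure D1:**
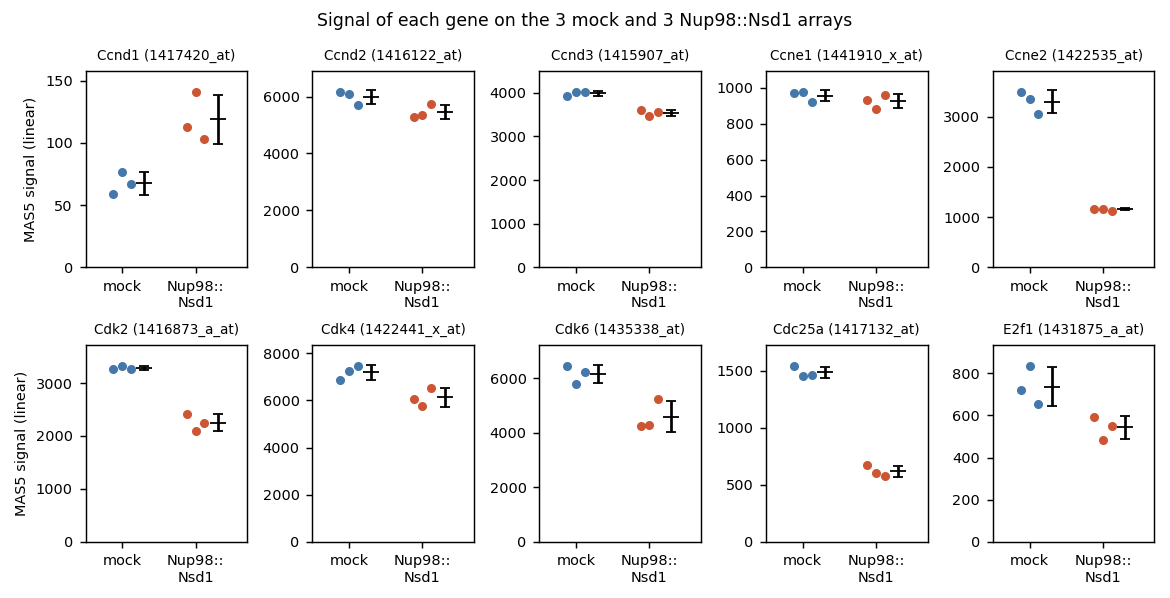
Signal of the brightest tested probe set of each gene (y axis, MAS5 signal on a linear scale from 0) on the 3 mock arrays (blue) and the 3 Nup98::Nsd1 arrays (red); black bars are the mean ± SD of each group. The Ccne2 arrays sit at 3051 to 3497 in mock cells and 1131 to 1166 in Nup98::Nsd1 cells, while the groups overlap for Ccnd2 and Ccne1; levels of different panels are not comparable.

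Some properties of the arrays moved with the groups. Between 45.0% and 45.8% of probe sets were Present on the mock arrays and between 47.5% and 48.2% on the Nup98::Nsd1 arrays. The mean log2 signal of the hybridization controls was 12.1 to 12.24 on the mock arrays and 12.53 to 12.56 on the Nup98::Nsd1 arrays. Scaling to these controls takes that difference out and lowers the fold changes. For Actb the 3′ over 5′ control ratio, which reflects how intact and fully labelled the RNA was, stood at 1.18 ± 0.029 in mock and 1.47 ± 0.026 in Nup98::Nsd1 samples (SD, n = 3 each), and for Gapdh at 0.76 ± 0.015 and 0.816 ± 0.023. The part of these differences in any result was not tested. Of 6 myeloid markers 4 were tested, Ptprc, Spi1, Csf2rb and Mpo, while Kit and Cd34 were Absent on all 6 arrays. The summed signal of the myeloid list was 32527 to 34379 on mock and 21708 to 22345 on Nup98::Nsd1 arrays, with Mpo, the granule enzyme myeloperoxidase, 3.68-fold lower and the other three at most 1.31-fold higher. With hybridization control scaling Mpo stayed lower (log2 fold change -2.25), Ptprc (0.03) and Spi1 (-0.05) did not pass, and Csf2rb was called lower (-0.20, limma adjusted p = 0.00316). No marker of fibroblasts (6 measured), T cells (4) or B cells (2) was Present often enough to be tested; their summed signals were 160 to 259, 252 to 341 and 59.1 to 70.8 on mock and 207 to 282, 238 to 268 and 93.2 to 125 on Nup98::Nsd1 arrays. Of 2 erythroid markers measured, Klf1 fell 1.93-fold and Epor did not pass, with a summed signal of 472 to 534 against 368 to 395. The part of these markers in any result was not tested. In bulk RNA, fewer cells in a phase of the cycle and less RNA of a gene per cell cannot be told apart.

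The D cyclins, which carry the growth factor signal to CDK4 and CDK6, showed no common direction. Of their 9 tested probe sets 5 fell, 1 rose and 3 did not pass, against 27.6% of all tested probe sets falling and 42.3% rising. Since 7 of the 9 belong to Ccnd2, with 1 each for Ccnd3 and Ccnd1, this count mostly repeats readings of 1 gene. Ccnd3, encoding cyclin D3, read 3916, 4013 and 4025 on the mock arrays and 3597, 3464 and 3564 on the Nup98::Nsd1 arrays at 1415907_at. Every Nup98::Nsd1 array lay below every mock array, but the fall was small, 1.13-fold (log2 fold change -0.17, SE 0.04, adjusted p = 0.00261), and after quantile normalization it was -0.04 (adjusted p = 0.319).

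The other two Ccnd3 probe sets were not tested. One of them, 1444323_at, was Absent on all 6 arrays. The other, 1438805_at, was Absent on each mock array at 22.9, 7.81 and 20.1, and Present on 2 of the Nup98::Nsd1 arrays, which read 136, 74.6 and 84.4. These groups did not overlap, and the direction was opposite to that of the bright probe set; in the fit without the detection filter it was called higher (log2 fold change 2.63, limma adjusted p = 0.00247).

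Ccnd2, encoding cyclin D2, was measured by 7 probe sets, all tested, of which 4 fell and 3 did not pass. At the brightest, 1416122_at, the mock arrays read 6169, 6097 and 5689 and the Nup98::Nsd1 arrays 5295, 5342 and 5744. The groups overlapped, and the fall of 1.10-fold (log2 fold change -0.13, SE 0.048, adjusted p = 0.0276) ended without mock replicate 1, mock replicate 2, Nup98::Nsd1 replicate 1 or Nup98::Nsd1 replicate 2, with adjusted p up to 0.108. It also ended without the detection filter (adjusted p = 0.0612) and without the intensity trend (adjusted p = 0.102), and turned into 0.01 after quantile normalization (adjusted p = 0.811).

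The dimmest Ccnd2 probe set, 1416124_at, changed most. It read 846, 884 and 858 on the mock arrays and 409, 501 and 463 on the Nup98::Nsd1 arrays, 1.89-fold lower (log2 fold change -0.92, SE 0.084, adjusted p = 1.69e-06). The groups were far apart there, and the mock arrays lay close together. At 1430127_a_at the mean of mock cells was 4492 ± 22.9 and that of Nup98::Nsd1 cells 3559 ± 92.7 (log2 fold change -0.34, adjusted p = 1.53e-05), and at 1416123_at 1016 ± 60.6 and 839 ± 44.2 (log2 fold change -0.28, adjusted p = 0.00336). The 3 others stood at -0.01 (1434745_at), 0.02 (1448229_s_at) and 0.05 (1455956_x_at), with 95% confidence intervals of -0.11 to 0.08, -0.13 to 0.17 and -0.06 to 0.15. Their calls depended on the scaling: all 3 were called lower with 75th percentile centring and with hybridization control scaling, and 1434745_at and 1455956_x_at with median centring too. With quantile normalization those 2 were called higher instead, at 0.12 (adjusted p = 0.0267) and 0.15 (adjusted p = 0.0145). The endings x and s mark probe sets whose probes may also match other sequences, and a marks one that covers several transcripts of 1 gene.

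The spread among Ccnd2 probe sets was wider than that between replicate arrays. The difference in log2 signal between 2 probe sets on the same array is free of any constant factor for that array, though not of quantile normalization, and its shift between groups shows whether the probe sets changed unequally. Of the 21 pairs of Ccnd2 probe sets, 15 had differences that did not overlap between the groups. These pairs come from only 7 probe sets, and the share of such pairs over all genes was not analysed here. For single probe sets, lack of overlap was common, at 73.2% of all tested, so the count alone does not set Ccnd2 apart. The largest shift, between 1455956_x_at and 1416124_at, was 0.97 (1.22 after quantile normalization): the difference was 1.82, 1.83 and 1.78 on the mock arrays and 2.87, 2.66 and 2.80 on the Nup98::Nsd1 arrays. Two-sided and exact, the permutation test returned p = 0.1, which is the lowest possible for 3 arrays against 3, and 0.143 after Benjamini-Hochberg adjustment over the 30 pairs tested within genes. Which stretch of the transcript each probe set reads was not analysed here. The Actb 3′ over 5′ ratio differed between the groups, and its part in the unequal shifts was not tested.

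**Figure D2:**
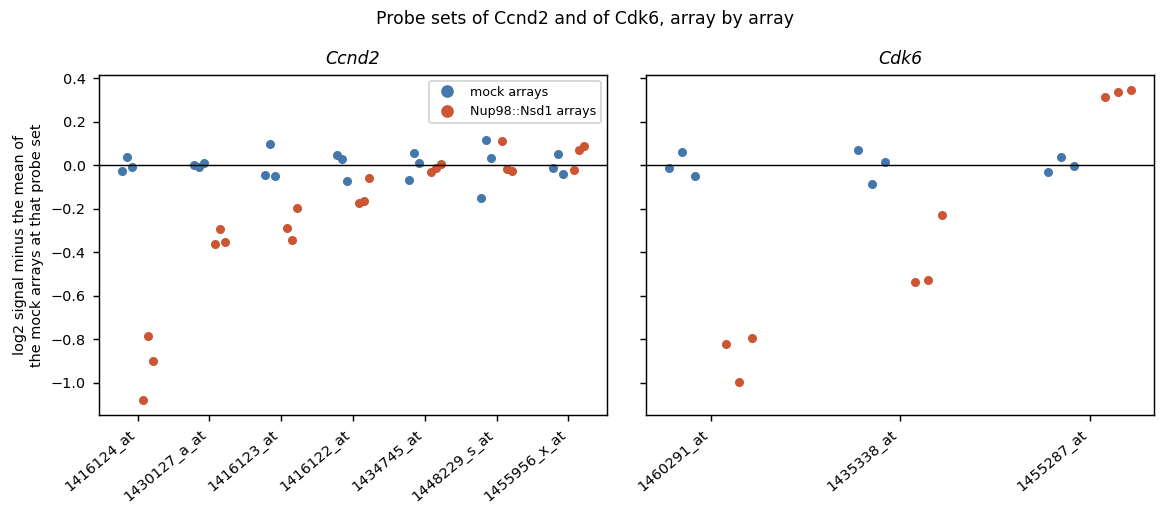
Log2 signal of each array minus the mean of the mock arrays at the same probe set (y axis), for the 7 tested probe sets of Ccnd2 (left) and the 3 of Cdk6 (right); blue points are mock arrays and red points Nup98::Nsd1 arrays. Ccnd2 runs from a fall of 0.92 at 1416124_at to 0.05 at 1455956_x_at, and the 3 Cdk6 probe sets split into 2 falls and 1 rise.

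Ccnd1, encoding cyclin D1, was the only one of the 10 genes that rose. At 1417420_at, Present on all 6 arrays, it read 58.5, 76.8 and 66.8 on the mock arrays and 113, 141 and 103 on the Nup98::Nsd1 arrays, 1.77-fold higher (log2 fold change 0.82, SE 0.22, adjusted p = 0.00508). The groups did not overlap, although the signals were low and the 95% confidence interval, 0.35 to 1.30, was the second widest of the 23. The rise did not pass after quantile normalization (log2 fold change 0.40, adjusted p = 0.108) or with hybridization control scaling (0.46, adjusted p = 0.0827). The other two Ccnd1 probe sets were not tested and overlapped between groups: 1448698_at was Present on 1 array and reached 133 in mock and 141 in Nup98::Nsd1 cells, and 1417419_at was Absent on all 6 arrays. Without the detection filter 1448698_at becomes the brightest Ccnd1 probe set, and its log2 fold change of 0.09 did not pass (limma adjusted p = 0.879), so the rise of Ccnd1 rests on 1 probe set.

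Ccnd1 was also set against the other D cyclins on the same array. Its log2 signal relative to Ccnd3 on the same array shifted by 0.99 and relative to Ccnd2 by 0.95, without overlap between the groups (exact permutation p = 0.1 each, 0.16 adjusted over 8 pairs of members). After quantile normalization these shifts were 0.45 and 0.39, less by over 2-fold. Ccnd2 and Ccnd3 shifted by 0.04 against each other, with overlap (exact permutation p = 0.6).

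The kinases were lower at most of their probe sets: of 7 tested, 6 fell and 1 rose, against 27.6% and 42.3% of all tested probe sets, and the groups did not overlap at any of the 7, against 73.2%. Since these are 3 probe sets each of Cdk4 and Cdk6 and 1 of Cdk2, the counts partly repeat readings of the same gene. Cdk4, a partner of the D cyclins, fell at all 3 of its probe sets. At the brightest, 1422441_x_at, the mock arrays read 6851, 7251 and 7461 and the Nup98::Nsd1 arrays 6081, 5755 and 6540, 1.17-fold lower (log2 fold change -0.23, SE 0.053, adjusted p = 0.00204). At 1422440_at the mean of mock cells was 5603 ± 437 and that of Nup98::Nsd1 cells 4274 ± 196 (log2 fold change -0.39, adjusted p = 9.97e-05), and at 1422439_a_at 4644 ± 48.5 and 4103 ± 162 (-0.18, adjusted p = 0.00271). After quantile normalization the brightest stood at -0.08 (adjusted p = 0.155) and 1422439_a_at at -0.05 (adjusted p = 0.329), while 1422440_at still passed.

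Cdk6, the other kinase of the D cyclins, was the one member whose probe sets were called in both directions. At the brightest, 1435338_at, the mock arrays read 6450, 5797 and 6214 and the Nup98::Nsd1 arrays 4239, 4272 and 5249, 1.35-fold lower (log2 fold change -0.43, SE 0.076, adjusted p = 0.000328). Nup98::Nsd1 replicate 3 lay well above the other two, yet below every mock array. At 1460291_at the signal went from 1451, 1527 and 1416 to 829, 734 and 844, 1.83-fold lower (log2 fold change -0.87, adjusted p = 4.12e-07). At 1455287_at it went the other way, from 3708, 3881 and 3775 to 4698, 4786 and 4810, 1.26-fold higher (log2 fold change 0.33, adjusted p = 1.61e-05). That rise turned into -0.03 with hybridization control scaling (adjusted p = 0.562), whereas both falls passed under every setting tried.

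The Cdk6 probe sets also shifted against each other within arrays, where a constant factor per array cancels. The log2 difference between 1455287_at and 1460291_at was 1.35, 1.35 and 1.41 on the mock arrays and 2.50, 2.70 and 2.51 on the Nup98::Nsd1 arrays, a shift of 1.20 (1.41 after quantile normalization). All 3 pairs of Cdk6 probe sets shifted without overlap of the groups (exact permutation p = 0.1 each, 0.143 adjusted). Here too the share of such pairs over all genes was not analysed. The platform annotation names 1435338_at and 1455287_at from the same source sequence, and they shifted by 0.76 against each other. Relative to 1435338_at, Cdk4 shifted by 0.20 and Ccnd3 by 0.26, both with overlap of the groups (exact permutation p = 0.2 each, 0.229 adjusted over 8 pairs of members). After quantile normalization these shifts were 0.21, without overlap, and 0.25, with overlap.

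Cdk2, the partner of the E cyclins, read 3273, 3324 and 3267 on the mock arrays and 2420, 2094 and 2250 on the Nup98::Nsd1 arrays at 1416873_a_at. Its arrays were far apart, 1.46-fold lower in Nup98::Nsd1 cells (log2 fold change -0.55, SE 0.054, adjusted p = 3.26e-06). The other Cdk2 probe set, 1447617_at, was Absent on all 6 arrays.

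**Figure D3:**
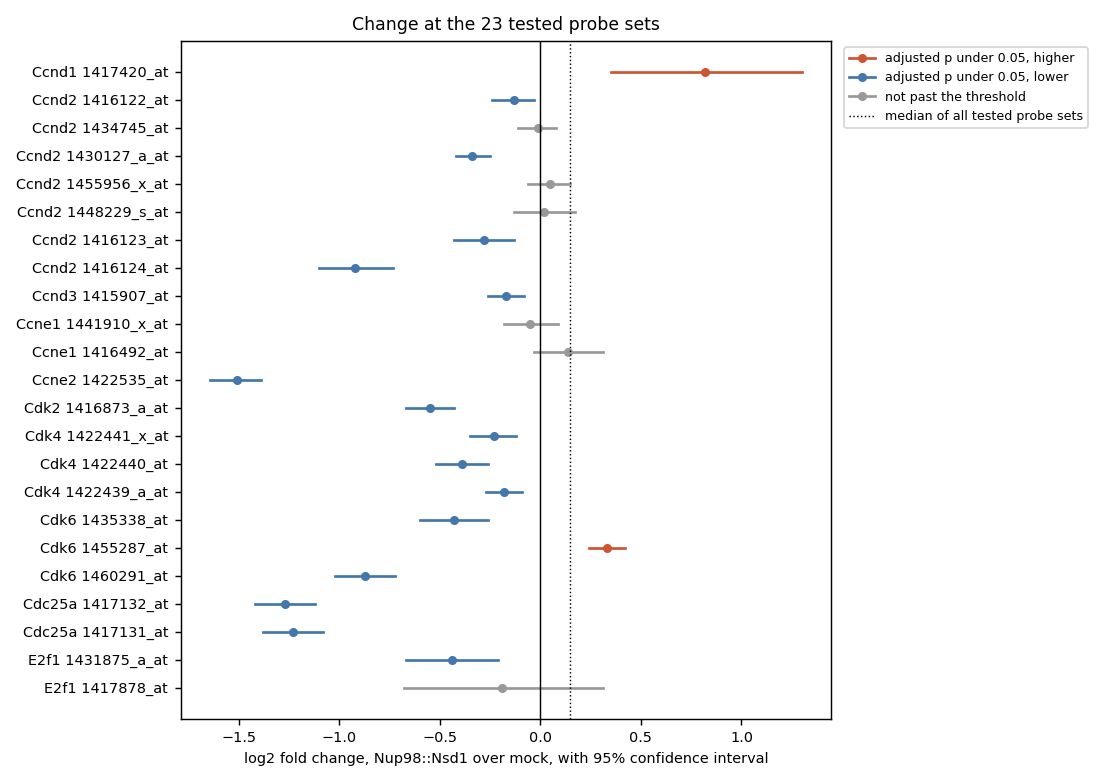
Log2 fold change of Nup98::Nsd1 over mock (x axis) at the 23 tested probe sets, with 95% confidence intervals from limma; blue marks falls and red rises past an adjusted p of 0.05, grey the rest, and the dotted line at 0.15 is the median of all tested probe sets. The longest falls are those of Ccne2 at -1.51 and Cdc25a at -1.27 and -1.23.

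The E cyclins parted. Ccne2, encoding cyclin E2, read 3497, 3351 and 3051 on the mock arrays and 1166, 1164 and 1131 on the Nup98::Nsd1 arrays at its only probe set, 1422535_at. It was 2.86-fold lower, with groups far apart (log2 fold change -1.51, SE 0.056, adjusted p = 1.44e-09). Among 9641 tested genes it had the fall of rank 59, so 0.612% of genes fell as much.

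Ccne1, encoding cyclin E1, did not pass at either probe set. At 1441910_x_at the mock arrays read 973, 978 and 919 and the Nup98::Nsd1 arrays 931, 883 and 960, which overlap (log2 fold change -0.05, 95% confidence interval -0.18 to 0.09, adjusted p = 0.49). At 1416492_at they read 469, 507 and 478 against 534, 514 and 555, without overlap (log2 fold change 0.14, 95% confidence interval -0.03 to 0.31, adjusted p = 0.132). These calls depended on the scaling. The brighter, 1441910_x_at, was called lower with 75th percentile centring (-0.25, adjusted p = 0.00419), median centring (-0.22, adjusted p = 0.00837) and hybridization control scaling (-0.41, adjusted p = 0.000441), and 1416492_at with the last alone (-0.23, adjusted p = 0.0457).

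The log2 difference of Ccne1 from Ccne2 on the same array was -1.85, -1.78 and -1.73 in mock cells and -0.32, -0.40 and -0.24 in Nup98::Nsd1 cells. Only its shift can be read, since levels of different probe sets are not comparable: it was 1.46, the largest of the 8 pairs of members, and 1.35 after quantile normalization (exact permutation p = 0.1, 0.16 adjusted). Ccne1 also shifted by 0.50 against Cdk2, the kinase it activates, without overlap (exact permutation p = 0.1, 0.16 adjusted), and by 0.33 after quantile normalization.

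Cdc25a, the phosphatase that removes inhibitory phosphates from CDK2, fell alike at both tested probe sets. At 1417132_at it read 1541, 1456 and 1460 on the mock arrays and 673, 604 and 578 on the Nup98::Nsd1 arrays, 2.41-fold lower (log2 fold change -1.27, SE 0.069, adjusted p = 2.42e-08). At 1417131_at it read 1429, 1328 and 1561 against 597, 612 and 625, 2.35-fold lower (log2 fold change -1.23, SE 0.07, adjusted p = 3.14e-08). The shift between these 2 probe sets was -0.04, with overlap of the groups (exact permutation p = 0.9). Its fall ranked 106 of 9641 genes. The third, 1445995_at, ranged from 42.9 to 79.5 in mock and from 39.1 to 72.9 in Nup98::Nsd1 cells, was Present on 2 arrays of each group and was not tested.

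E2f1, an E2F factor that the retinoblastoma protein holds back, fell at 1 of 2 tested probe sets. At 1431875_a_at the mock arrays read 722, 835 and 654 and the Nup98::Nsd1 arrays 595, 484 and 551, 1.35-fold lower without overlap (log2 fold change -0.44, SE 0.10, adjusted p = 0.00271). At the dimmer 1417878_at they read 226, 183 and 311 against 223, 261 and 150, which overlap widely (log2 fold change -0.19, 95% confidence interval -0.68 to 0.31, adjusted p = 0.475). The third, 1447840_x_at, was Absent on all 6 arrays. Cdc25a fell further than E2f1 on the same arrays, by 0.83 on the log2 scale without overlap (exact permutation p = 0.1, 0.16 adjusted).

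How many members passed depended on how the arrays were scaled. With 75th percentile centring 9 of the 10 genes were called lower and Ccnd1 higher, against 40.9% and 30.3% of all genes, and 19 and 2 of the 23 probe sets, against 38.1% and 31.0%. With median centring the genes were again 9 and 1, against 39.1% and 31.9%, and the probe sets 18 and 2, against 36.5% and 32.4%. With hybridization control scaling 9 genes were lower and 0 higher, against 50.4% and 21.1%, and 21 and 0 probe sets, against 46.8% and 22.3%. With quantile normalization 5 genes were lower and 0 higher, against 33.2% and 36.3%, and 11 and 3 probe sets, against 33.8% and 33.3%. The split of calls over all tested probe sets moved as well, from 60.5% higher as deposited to 49.7% with quantile normalization, 47.1% with median centring, 44.8% with 75th percentile centring and 32.3% with hybridization control scaling. Under the deposited values and all 16 alternatives for probe sets, 11 probe sets of 7 genes (Ccnd2, Ccne2, Cdc25a, Cdk2, Cdk4, Cdk6 and E2f1) were called lower each time and 0 higher each time.

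**Figure D4:**
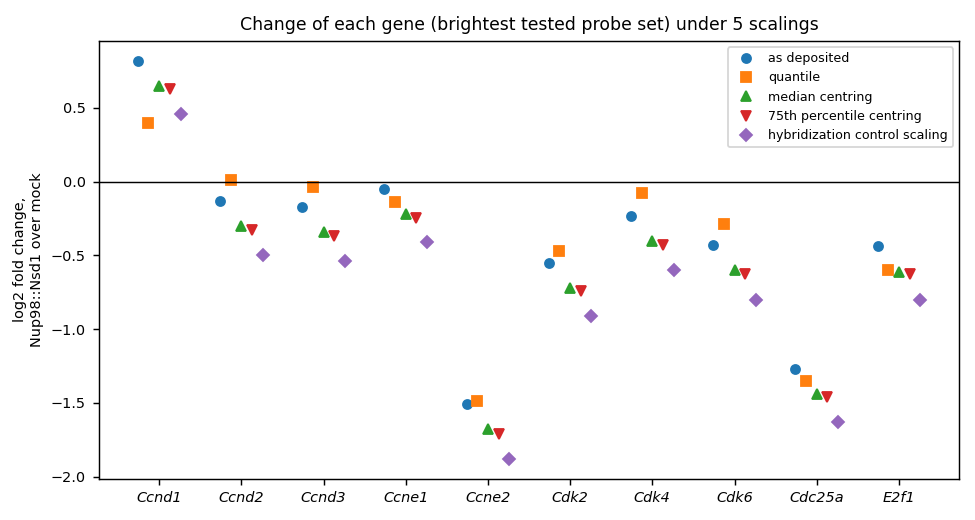
Log2 fold change of Nup98::Nsd1 over mock (y axis) of the brightest tested probe set of each of the 10 genes under 5 scalings of the arrays (symbols). Ccne2 lies between -1.88 and -1.49 and Cdc25a between -1.63 and -1.27 in all 5, whereas Ccnd2 runs from -0.50 to 0.01.

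Other genes of the pathway were read from lists. The E2F family and its DP partners, which bind DNA as pairs with E2F, split: of 9 tested genes 4 fell, 3 rose and 2 did not pass, against 29.5% and 42.9% of all genes falling and rising, with a median log2 fold change of -0.18. Tfdp1, the DP1 partner of E2f1, fell 2.50-fold, from 8947 ± 50.9 to 3581 ± 44.8 (log2 fold change -1.32, adjusted p = 2.27e-10). The repressor genes E2f6 and E2f8 fell 1.72-fold and 1.48-fold, while E2f5, a partner of the pocket proteins, rose 2.38-fold (adjusted p = 6.56e-07).

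The CDK inhibitors and pocket proteins, which hold the G1 kinases and E2F in check, included more rises than falls: of 7 tested genes 5 rose, 1 fell and 1 did not pass, against 42.9% of all genes rising and 29.5% falling, with a median of 0.39. Cdkn1b, the inhibitor p27 of CDK2, rose 2.33-fold, from 797 ± 48.4 to 1855 ± 109 (log2 fold change 1.22, adjusted p = 2.19e-08). Cdkn2d, Cdkn1a (p21) and the retinoblastoma gene Rb1 rose 1.38-fold, 1.36-fold and 1.31-fold, and did not pass with hybridization control scaling, at 0.10, 0.08 and 0.02 on the log2 scale. With that scaling 1 gene of the list was called higher and 3 lower.

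The S phase genes, which textbooks give as targets of E2F, fell almost throughout: of 21 tested genes 20 fell and 1 rose, against 29.5% and 42.9% of all genes, with a median of -0.96. Under each of the 4 other scalings 20 were also called lower. This list, like the others, was chosen with earlier results of these data known. The repair enzyme Ung fell 4.11-fold, the replication licensing factor Cdc6 3.43-fold and the helicase subunit Mcm4 2.80-fold. The thymidine kinase Tk1 fell 2.43-fold (adjusted p = 1.50e-08). The rise was that of the thymidylate synthase gene Tyms, 1.68-fold (adjusted p = 0.00193), with a second probe set at 0.05 that did not pass. Tyms is named after its value was seen. Among the genes that fell, not every probe set did. Rrm1 had others called higher (0.54) and lower (-1.32), and Slbp (0.12) and Mcm3 (-0.26) each had another that did not pass. With the mean of the probe sets of each gene, 20 were again called lower.

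Cyclins and kinases of the later cycle, with the CDK-activating kinase, went both ways: of 8 tested genes 5 rose, 2 fell and 1 did not pass, against 42.9% of all genes rising and 29.5% falling. Their median was 0.21, but 0.02 and 0.04 with 75th percentile and median centring and -0.15 with hybridization control scaling. The phosphatases Cdc25b and Cdc25c, relatives of Cdc25a that act mainly on mitotic CDK1, rose 1.89-fold (adjusted p = 2.36e-07) and 1.47-fold (adjusted p = 0.00249). Cyclin A2, Ccna2, rose 1.35-fold at its brighter probe set and stood at -0.09 at the other, while Cdk1 fell 1.27-fold. With hybridization control scaling Cdc25c (0.19) and Ccna2 (0.07) did not pass, and 1 gene of this list was called higher and 4 lower. The proliferation marker Mki67 rose 2.15-fold, from 6041 ± 381 to 12970 ± 492 (adjusted p = 6.9e-09).

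**Figure D5:**
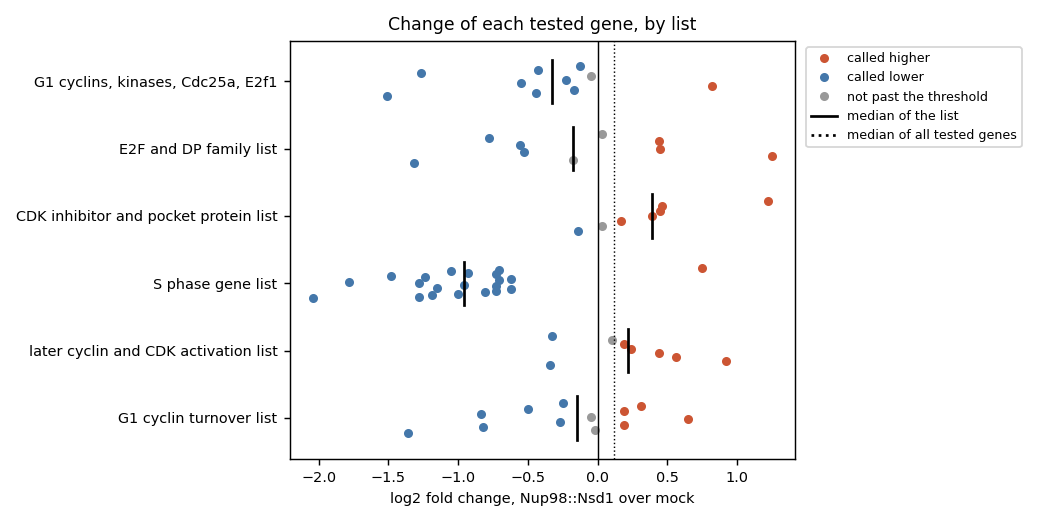
Log2 fold change of Nup98::Nsd1 over mock (x axis) of each tested gene by its brightest probe set, 1 row per list; blue marks calls lower, red calls higher and grey genes past no threshold, black bars are list medians and the dotted line at 0.12 is the median of all 9641 tested genes. The S phase list lies lowest, with a median of -0.96, and the CDK inhibitors and pocket proteins highest, at 0.39.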

How the data were processed

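Total RNA of 3 mock and 3 Nup98::Nsd1 samples was labelled from 100 ng and hybridised to 1 array each. The authors processed the arrays with MAS5, per the submitters' processing notes, and deposited for each probe set a scaled signal intensity on a linear scale, a detection p-value and a detection call, per the file headers. No source used here states the MAS5 version or scaling target. Intensities in the series matrix differed from these by at most 5e-06 of their value.

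Of 45101 probe sets 64 controls were left out. Symbols came from the platform annotation of the probe sets and were brought up to date by matching Entrez identifiers to RefSeq. Signals under 1 were set to 1 and taken to log2. The comparison used limma 3.58.1 under R 4.3.3 (linear model, moderated test with an intensity trend), with Benjamini-Hochberg adjustment over the 20494 tested probe sets. A positive log2 fold change means higher in Nup98::Nsd1 cells, and folds lower are inverted to exceed 1. Text names every member probe set and, of each other list, up to 4 genes past the threshold with the largest change. Some list genes whose probe sets differed are named too, after their values were seen. The members and lists were chosen with earlier results of these data known. The fit was also run on 20 simulated data sets of 20494 probe sets with the same groups of arrays and 50 changed probe sets of each size. There 23.5% of changes of 0.25, 61.6% of 0.5, 88.2% of 1 and 98.9% of 2 on the log2 scale were called, and 6.75% of calls were false. In the real data a far larger share passed, 69.9% of probe sets, so these rates need not hold for this comparison.

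Same-numbered samples did not deviate together from their group means (r = -0.017, -0.0111 and 0.0212 over tested probe sets), so the numbers were not taken to pair them. The alternatives are named in the closing section.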

Additional observations from a re-analysis of the deposited data

How the results depend on the processing

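Alternatives were a pseudocount of 16, no detection filter, Present on all 6 arrays, 4 other scalings, the series matrix in place of the sample files, no intensity trend, the mean of the probe sets of a gene, a replicate block and each array left out in turn. The replicate block left 15 member probe sets lower and 2 higher and changed no member's call. Of the counts of the 10 genes, those higher went from 1 to 0 without the detection filter, with quantile normalization and with hybridization control scaling, and those lower from 8 to 5 with quantile normalization; member probe sets called higher went from 2 to 0 with hybridization control scaling. With that scaling the counts higher became 1 for the E2F and DP family, 1 for CDK inhibitors and pocket proteins (3 lower), 0 for S phase genes, 1 for later cyclins (4 lower) and 1 for the turnover genes. With 75th percentile centring 2 inhibitors and pocket proteins were lower, and with quantile normalization or no intensity trend 0 were. With 75th percentile or median centring 3 later cyclin genes and 2 turnover genes were higher. With the mean of the probe sets of a gene, 1 later cyclin gene was lower. Leaving out each array in turn gave 7 to 8 genes lower and 1 higher. It left 5 to 7 of the 8 pairs of members without overlap, where all 6 arrays gave 5.

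Directions of probe sets called under either setting turned as follows; the cause was not tested. For Ccnd2 these were 1416122_at (0.01) and 1434745_at (0.12) with quantile normalization, 1455956_x_at when centred on the 75th percentile (-0.15) or the median (-0.12) or scaled to hybridization controls (-0.32), and 1448229_s_at with 75th percentile centring (-0.17) and hybridization control scaling (-0.34). With that scaling Ccne1 1416492_at (-0.23) and Cdk6 1455287_at (-0.03) turned too. Signs of values that passed under neither setting turned for Ccne1 1416492_at (quantile -0.05, 75th percentile -0.06, median -0.03), Ccnd2 1448229_s_at (median -0.15, without mock replicate 1 -0.05, without Nup98::Nsd1 replicate 1 -0.02), Ccnd2 1434745_at (without mock replicate 2, 0.02) and E2f1 1417878_at without mock replicate 3 (0.02) or Nup98::Nsd1 replicate 3 (0.04). Low signal limits Ccnd1, 1417878_at of E2f1 and the 7 untested probe sets.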

Other observations

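Genes that mark the G1 regulators for destruction changed in both directions: of 12 tested, 6 fell, 4 rose and 2 did not pass, against 29.5% of all genes falling and 42.9% rising, with a median log2 fold change of -0.15. These counts depended on the probe set: with the mean of the probe sets of each gene, 6 were higher and 5 lower. Fbxw7, counted as a fall, had another probe set called higher (0.99). Fbxw11, counted as a rise, had others called lower (-0.71) and higher (0.86). Skp2, the ubiquitin ligase subunit that recognises p27, fell 2.57-fold, from 2587 ± 85.4 to 1006 ± 33.4 (SD, n = 3 each; limma log2 fold change -1.36, adjusted p = 1.58e-09), and its core partner Skp1 fell 1.76-fold (adjusted p = 5.98e-07). Chek1, the checkpoint kinase that directs Cdc25a to breakdown, fell 1.79-fold at its brightest probe set (adjusted p = 2.84e-07), and of its 3 other tested probe sets 2 fell and 1 did not pass. Ambra1, which directs D cyclins to breakdown, rose 1.57-fold (adjusted p = 0.00012).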
